A study of Mus musculus with 6 samples.

Results

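The nuclear genes that encode the respiratory chain were taken from the cochlear modiolus of mice with and without degenerated spiral ganglion neurons (SGNs). Members were all protein-coding genes of the mouse annotation (GENCODE M21, build GRCm38) whose symbol begins with Nduf followed by a, b, c, s or v, with Uqcr, with Cox and a digit from 4 to 8, or with Atp5, together with Sdha, Sdhb, Sdhc, Sdhd and Cyc1. This rule, which uses no measured value, found 95 genes among the 22028 protein-coding genes of the annotation, of which 46 bear a complex I name, 4 belong to complex II, 9 to complex III, 18 to complex IV and 18 to complex V. Of the 46 complex I names, 38 are subunit names and 8 are Ndufaf names, which denote assembly factors that the symbol rule also takes in. The deposited table lists a transcript for 82 of the 95 genes, and 79 had enough counts to be tested.

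Control mice received saline, and the degenerated group was sampled 30 days after 1 g/kg kanamycin sulfate and 0.4 g/kg furosemide, drugs that destroy cochlear hair cells, after which SGNs degenerate. Both groups were wild-type C57BL/6 mice that the study's methods give as 8-week-old males, with 3 libraries in each. The tissue was the whole modiolus, the bony core of the cochlea around the SGNs, although the labels give the SGN as the cell type. The libraries therefore also held RNA of glia, blood, bone and other cells, and no label says whether the libraries of a group came from separate animals, so that p-values measure the spread between these libraries.

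The respiratory chain of the inner mitochondrial membrane passes electrons from NADH and succinate to oxygen. Complex I (NADH dehydrogenase) and complex II (succinate dehydrogenase) hand electrons to ubiquinone, complex III (the cytochrome bc1 complex) passes them to cytochrome c, and complex IV (cytochrome c oxidase) passes them to oxygen. Complexes I, III and IV pump protons, and complex V (ATP synthase) uses the proton gradient to make ATP. Most subunits are encoded in the nucleus, complex II entirely so, and neurons that fire at high rates, as SGNs do, depend heavily on this supply of ATP.

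The libraries held 12480876 to 15549319 counts. Replicates of a group had Pearson correlations of 0.913 to 0.948 across genes on the scale of log2(CPM + 1), where CPM is the count per 1000000 counts of the TMM-scaled library. A gene was called where p was below 0.01 before adjustment and the log2 fold change was more than 0.2 in size. These criteria were taken from another comparison, of knockout with wild-type mice, since none are stated for this one. Over all 14118 genes tested, 284 were called higher and 101 lower in degenerated libraries. At an adjusted p under 0.05 edgeR's quasi-likelihood test with Benjamini-Hochberg adjustment called 0 genes, with 1367 at an unadjusted p under 0.05, while DESeq2 called 383 and edgeR's exact test 115. The summed level of the 14 listed of 15 SGN marker genes was 10970 to 14100 CPM in control libraries and 6530 to 9608 CPM in degenerated ones. None of the 14 was at 0 in all libraries, and 1 of 12 tested (Calb2) was called lower. Of the 12, 9 lay below 0, and 5 were separated between the groups (Nefl, Nefm, Nefh, Snap25 and Calb2). These 5 made up most of the sum. Gata3 (0.29, SE 0.24), Map2 (0.08, SE 0.94) and Prph (1.295, SE 1.565) lay above 0, and Tubb3 was at -0.04 (SE 0.13). The 9 listed of 10 hair cell markers summed to 494 to 745 CPM and 169 to 496 CPM, which overlapped by a few CPM. Of 8 tested, 2 (Ocm and Slc26a5) were called lower and were the only ones separated between the groups. Myo7a lay above 0 (0.15, SE 0.42) and the other 7 below. Among markers of other cells, the 5 listed of 8 bone genes summed to 479 to 681 CPM in control and 120 to 232 CPM in degenerated libraries, with 2 of 4 tested called lower. Macrophage markers (5 of 8 listed) summed to 331 to 394 and 466 to 613 CPM, with 2 of 4 tested called higher (C1qb and C1qc). This pair made up most of the sum. Cx3cr1 lay above 0 (1.855, SE 1.673) and Cd68 below (-1.541, SE 1.108), both with overlapping groups. Aif1, which was not tested, had a mean of 10.46 CPM before and 0.0456 CPM after degeneration, with control replicate 2 at 0.07075 CPM. Markers of the stria vascularis (8 of 10 listed) summed to 2416 to 2837 and 3127 to 4014 CPM, with 1 of 6 called higher. Schwann cell and oligodendrocyte markers (8 of 10 listed) overlapped at 5511 to 9729 and 4855 to 7725 CPM, as did erythroid markers (6 of 8 listed), at 6400 to 41410 and 3479 to 16730 CPM, and neutrophil markers (6 of 8 listed), at 250 to 12840 and 599 to 4490 CPM. The part of these cell types in the results on the respiratory chain was not tested, and in bulk tissue fewer cells of a type and less RNA per cell cannot be told apart.

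Respiratory chain transcripts stood lower in degenerated than in control libraries in all 5 complexes on the CPM scale, by a small amount each. Per transcript length, before centring, complex II turned and complex III was at -0.0031 with 3 of 6 subunits below 0, as given with the levels. Of the 79 members tested, 72 had a log2 fold change (degenerated minus control) below 0, where 50.3% of all genes tested did. Their median was -0.24, which is 15.5% lower on the linear scale, beside a median of -0.0034 over all genes tested. Of the members, 2 were called lower (0.715% of all genes) and 0 higher (2.01% of all genes, 2.73% in both directions), while 14 had an unadjusted p under 0.05 (9.68% of all genes), of which 14 were lower (3.6% of all genes) and 0 higher (6.08% of all genes). No member had an adjusted p under 0.05, the smallest being 0.338 in edgeR's quasi-likelihood test with Benjamini-Hochberg adjustment. In 27 members all 3 degenerated libraries lay below all 3 control libraries (7.37% of all genes), and in 0 members they lay above (10.3% of all genes).

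Summed over the 79 members, the level was 14400, 13490 and 16020 CPM in control replicates 1, 2 and 3 and 13060, 12140 and 11810 CPM in degenerated replicates 1, 2 and 3. The groups did not overlap, but control replicate 2 and degenerated replicate 1 lay close together, and control replicate 3 was the highest library. The group means were 14640 ± 1282 and 12340 ± 650 CPM (SD, n = 3), a difference of 15.7% of the control mean. Without control replicate 3, 67 of 79 members still had a log2 fold change below 0, but the median of complex I moved from -0.27 to -0.16, that of complex II from -0.11 to -0.05 and that of complex III from -0.11 to -0.07. The median of complex IV moved from -0.32 to -0.245 and that of complex V from -0.24 to -0.20. Leaving out control replicate 2, the lowest control library, moved complexes II and III the other way, to -0.19 and -0.20, and leaving out degenerated replicate 3 or 2 moved complex II to -0.05 or -0.16.

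**Figure D1:**
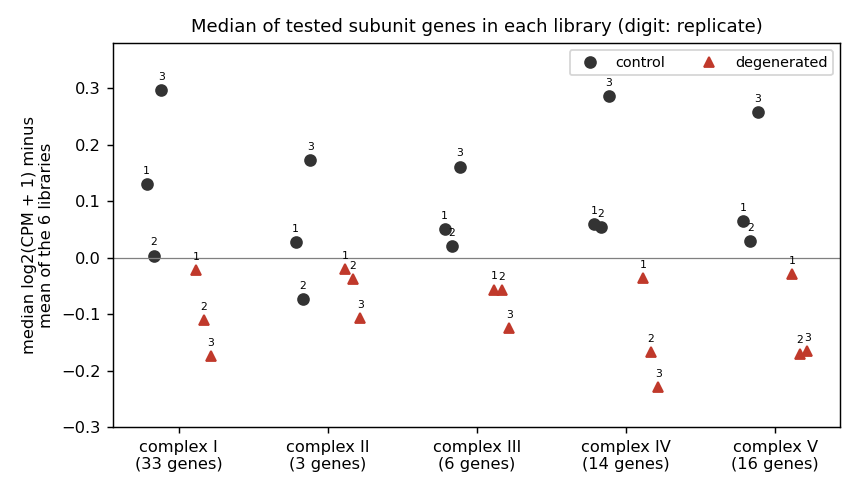
Median over the tested subunit genes of each complex of log2(CPM + 1) minus its mean over the 6 libraries (vertical axis), drawn for each library (circles control, triangles degenerated, digits the replicate). The groups do not overlap in complexes I, III, IV and V, whereas in complex II control replicate 2 (-0.07) lies within the degenerated range (-0.11 to -0.02).

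The subunits were lower to an unequal degree from complex to complex, and the differences between complexes were not tested. Complex IV had the lowest median log2 fold change, -0.32 over 14 tested subunits, all 14 below 0, and its summed CPM was 18.1% lower. Complex I followed with -0.27 over 33 subunits, 30 of them below 0, and a sum 16.5% lower, and complex V with -0.24 over 16 subunits, 15 of them below 0, and a sum 15.8% lower. Complexes were assigned by symbol, so the 33 include Ndufa4 and Ndufa4l2, and the complex I median is the value of Ndufa4. The 16 include Atp5s, which RefSeq names Dmac2l. Complexes III and II showed medians of -0.11 each, over 6 subunits (5 below 0) and 3 subunits (all 3 below 0), with sums 13.6% and 8.03% lower. Complex III includes Uqcrh and Uqcrq, which have few counts and no principal (main coding) transcript listed. Over subunits with such a transcript listed, complex III had a median of -0.16 (4 subunits) and complex II -0.11 (3 subunits). Those of complexes I, IV and V were -0.28, -0.33 and -0.26. Non-overlapping libraries, with all degenerated below all control, were seen in 10 of 33 subunits of complex I, 1 of 3 of complex II, 2 of 6 of complex III, 7 of 14 of complex IV and 5 of 16 of complex V, beside 7.37% of all genes. With 3 and 6 subunits, the counts of complexes II and III rest on 1 and 2 genes.

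**Figure D2:**
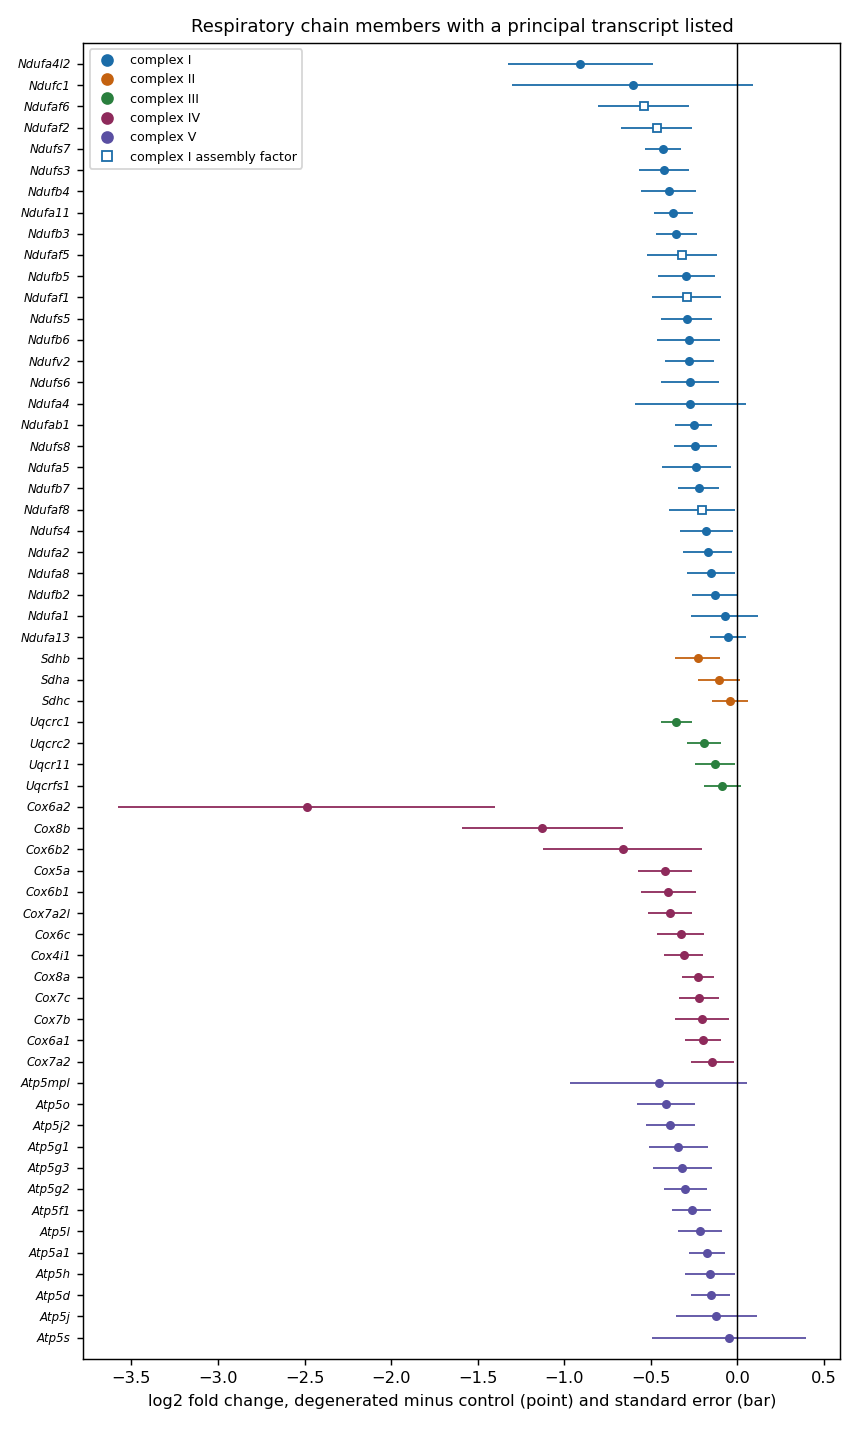
Log2 fold change of degenerated minus control (points, with the standard error as a bar) for 61 of the 62 tested members that have an annotated principal transcript in the table, sorted within complexes I to V. All 61 points lie below 0 (per transcript length, before centring, 55 of the 62 members do), most of them between 0 and -0.5, and the widest bar is that of Cox6a2 (-2.49).

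The 7 core subunits of the peripheral arm of complex I, which carry the flavin and the iron-sulfur clusters, showed a median log2 ratio between groups of -0.33, and 6 of the 7 were below 0. That median is the value of Ndufs1 (SE 0.43, and -0.76 to -0.02 with 1 library left out), whose principal transcript is not in the table. Ndufs7 holds the iron-sulfur cluster next to ubiquinone and was the only complex I gene called. It had 134.8, 147.4 and 146.5 CPM in control and 102.1, 104.6 and 111.8 CPM in degenerated replicates 1, 2 and 3. Each degenerated library lay below each control library, with a gap between 111.8 and 134.8 CPM. Its log2 fold change was -0.43 (SE 0.10), within the criteria of a call, and the adjusted p was 0.338 in edgeR's quasi-likelihood test with Benjamini-Hochberg adjustment (0.0143 in DESeq2). The call was lost in 5 of the 6 fits that left out 1 library (all but that without control replicate 1), with edgeR's exact test and with a block on the replicate number, while its log2 fold change stayed between -0.48 and -0.41.

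Ndufs7 lies on chromosome 10 at 80249121 to 80256794 (GRCm38, plus strand). Of its listed transcripts, the coding one of 983 nt had 1399, 1065 and 1442 counts in control and 1034, 1283 and 1075 in degenerated replicates 1, 2 and 3. The coding one of 758 nt had 516, 819 and 736 counts in control and 353, 114 and 221 in degenerated replicates. Degenerated libraries overlapped with control libraries in the longer transcript and lay below all of them in the shorter one, a split that was not tested.

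Ndufs3, a core subunit of the stalk that leads to the membrane, had 183.2, 162.6 and 170.1 CPM in control and 136.1, 143.0 and 106.0 CPM in degenerated replicates 1, 2 and 3, with a log2 fold change of -0.42 (SE 0.14, adjusted p = 0.439). The groups did not overlap. Ndufs8, an iron-sulfur subunit, was also separated, at 120.6 to 143.9 CPM in control and 102.4 to 114.6 CPM in degenerated libraries (log2 fold change -0.24, SE 0.12, adjusted p = 0.59). Ndufv2, an iron-sulfur subunit at the site of NADH oxidation, stood at 306.9 to 385.8 and 254.8 to 327.9 CPM, where the groups overlapped (-0.28, SE 0.14).

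A further pair of core subunits is hard to read here. Ndufv1, which binds NADH and the flavin, was counted at only 2.49 to 5.07 CPM and Ndufs1, the largest iron-sulfur subunit, at 17.7 to 53.7 CPM, and neither has its principal transcript in the table.

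Accessory subunits surround the core and stabilise it. For the 13 tested NDUFA genes the median log2 fold change was -0.18, with 12 below 0, and for the 8 tested NDUFB genes -0.29, with 7 below 0. Ndufa11, an accessory subunit of the membrane arm, had 174.6, 166.0 and 185.8 CPM in control and 148.1, 123.8 and 135.4 CPM in degenerated replicates 1, 2 and 3. The groups were separated, with a log2 fold change of -0.37 (SE 0.11, adjusted p = 0.403). Ndufb3, also of the membrane arm, had 130, 117.9 and 145.0 CPM against 99.7, 104.0 and 104.1 CPM, again without overlap (-0.35, SE 0.12, adjusted p = 0.437). Ndufb4 had a log2 fold change of -0.40 (SE 0.16, adjusted p = 0.509), with control libraries at 163.9 to 213.5 CPM and degenerated libraries at 126.7 to 163.1 CPM, just apart. At the other end, Ndufa13 and Ndufa1 differed by -0.05 (SE 0.11) and -0.07 (SE 0.19), and their groups overlapped.

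Ndufa4 and Ndufa4l2 bear complex I names but differ in role, the former being a subunit now assigned to complex IV and the latter a homologue induced by low oxygen. Both are counted with complex I in the medians and sums given here. Ndufa4 stood at 12.9 to 28.7 CPM in control and 16.7 to 17.9 CPM in degenerated libraries, with the degenerated range inside that of the controls (log2 fold change -0.27, SE 0.32, and 0.01 without control replicate 3). Ndufa4l2 had 6.75, 8.56 and 6.64 CPM in control and 5.61, 3.94 and 2.13 CPM in degenerated replicates 1, 2 and 3. These groups did not overlap (-0.91, SE 0.42, adjusted p = 0.562), at a level of few counts.

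Among the 7 tested Ndufaf assembly factors, which help to build complex I without staying in it, 5 had a log2 fold change below 0 and the median was -0.29. Ndufaf2 stood at 32.3 to 49.1 CPM in control and 29.1 to 31.4 CPM in degenerated libraries (-0.47, SE 0.20), and Ndufaf6 at 11.3 to 16.2 and 8.13 to 9.51 CPM (-0.54, SE 0.26). Both were separated between the groups. Ndufaf4 had the largest increase of any member, 1.11 (SE 0.72), which rested on degenerated replicate 1 with 39.2 CPM against 6.37 to 10.1 CPM in the other 5 libraries. A noncoding transcript of the gene had 573 counts there, and without that library the log2 fold change was -0.14. The largest decrease, -2.84 (SE 2.35) in Ndufb10, came from a single listed transcript with 0, 346 and 166 counts in control and 0, 69 and 0 counts in degenerated replicates 1, 2 and 3, and was smaller than 2 standard errors. Without control replicate 2 it was -1.70, and without degenerated replicate 2, when the remaining degenerated libraries are at 0, the fitted value of -10.4 is no measure of size.

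Complex II also works in the citric acid cycle and has no subunit encoded by the mitochondrion. Sdha, the flavoprotein, had 745.2, 638.1 and 781.3 CPM in control and 683.5, 711.7 and 614.7 CPM in degenerated replicates 1, 2 and 3. The groups overlapped, and the log2 fold change was -0.11 (SE 0.12). Sdhb, the iron-sulfur subunit, had 273.3, 278.1 and 348.6 CPM against 269.9, 241.0 and 256.7 CPM, just separated, with -0.23 (SE 0.13, adjusted p = 0.628, and -0.12 without control replicate 3). Sdhc, a membrane anchor, lay at -0.04 (SE 0.10) with overlapping groups, and Sdhd, the other anchor, has no listed transcript.

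Uqcrc1, a core protein of complex III on the matrix side, was the other member called. It had 428.9, 441.4 and 440.5 CPM in control and 360.5, 326.0 and 340.3 CPM in degenerated replicates 1, 2 and 3. Control libraries lay close together, and all degenerated libraries lay well below them. The log2 fold change was -0.35 (SE 0.09) and met the criteria of a call, and its adjusted p was 0.357 by edgeR's quasi-likelihood test with Benjamini-Hochberg adjustment (0.0167 in DESeq2). The call was lost in each of the 6 fits that left out 1 library, where the log2 fold change was -0.40 to -0.33, and also with the exact test and the block on replicate number. The gene lies on chromosome 9 at 108936633 to 108949623 (GRCm38, plus strand), and 94.6% of its counts fell on its principal coding transcript.

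The partner core protein Uqcrc2 was separated too, at 408.8 to 470.8 CPM in control and 376.6 to 404.2 CPM in degenerated libraries, with a log2 fold change of -0.19 (SE 0.10, adjusted p = 0.601). Uqcrfs1, the Rieske iron-sulfur protein, stood at 262.2 to 308.6 and 259.4 to 287.3 CPM, overlapping, with -0.09 (SE 0.11). Of the small subunits, Uqcr11 had a log2 fold change of -0.13 (SE 0.12), whereas Uqcrh and Uqcrq were counted at 3.08 CPM or less without their principal transcripts. Cyc1, which encodes cytochrome c1, and Uqcrb have no listed transcript, and Uqcr10 had too few counts to be tested.

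**Figure D3:**
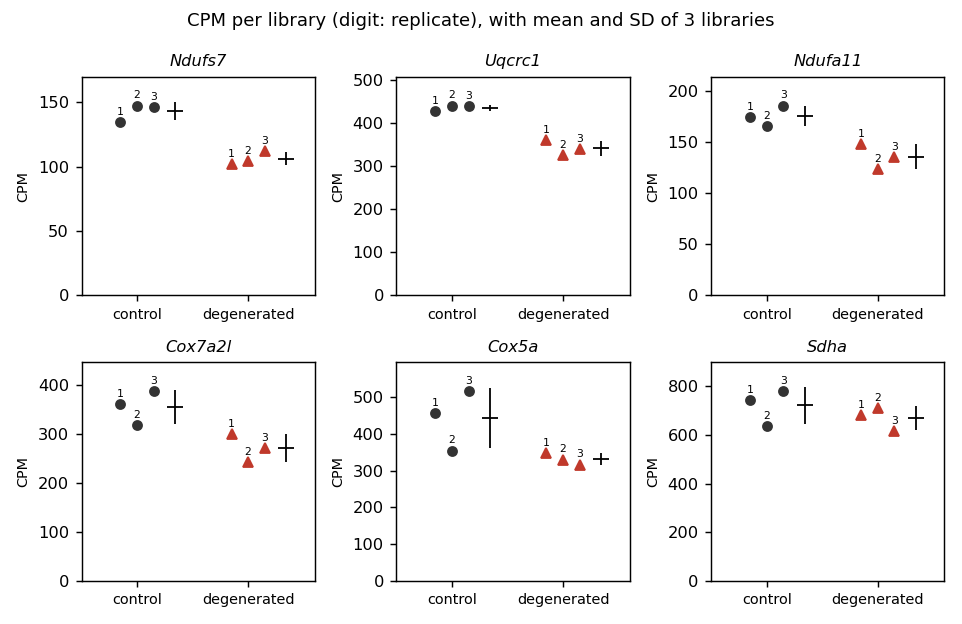
CPM (vertical axis, from 0) of 6 members in each library (circles control, triangles degenerated, digits the replicate), with the mean and SD of the 3 libraries beside them. Ndufs7, Uqcrc1, Ndufa11, Cox7a2l and Cox5a show no overlap between the groups, while Sdha overlaps.

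In complex IV the nuclear subunits surround the catalytic core that the mitochondrion encodes. Cox4i1, which takes part in the regulation of the enzyme by ATP, had 334.9, 359.6 and 397.5 CPM in control and 318.8, 284.8 and 277.4 CPM in degenerated replicates 1, 2 and 3 (log2 fold change -0.31, SE 0.11, adjusted p = 0.469). Cox5a, a matrix-side subunit that contacts Cox4i1, had 458.2, 355.0 and 517.8 CPM against 348.7, 330.4 and 316.8 CPM (-0.42, SE 0.16, adjusted p = 0.48). In Cox4i1 and Cox5a the groups did not overlap, but in Cox5a control replicate 2 came close to degenerated replicate 1. Without control replicate 2 the log2 fold change of Cox5a was -0.56 and Cox5a met the criteria of a call.

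Cox7a2l, counted with complex IV by its symbol, had 360.6, 317.7 and 387.9 CPM in control replicates 1, 2 and 3. Degenerated replicates 1, 2 and 3 had 299.5, 243.1 and 271.6 CPM. The groups were separated, with a log2 fold change of -0.39 (SE 0.13, adjusted p = 0.421). Cox6b1, on the outer face of the enzyme, stood at 232.4 to 322.2 CPM in control and 188.2 to 236.8 CPM in degenerated libraries, overlapping by a few CPM (-0.40, SE 0.16, adjusted p = 0.499). Cox6c and Cox7c were separated with -0.33 (SE 0.14) and -0.22 (SE 0.11), and Cox7b and Cox7a2 overlapped with -0.20 (SE 0.16) and -0.15 (SE 0.12). Cox5b was counted at 5.89 to 10.02 CPM without its principal transcript, with a log2 fold change of -0.0050 (SE 0.30) whose sign changed between settings.

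Several complex IV subunits exist as a ubiquitous isoform and as one of heart and skeletal muscle, and these parted in level and in spread. Cox6a1, the ubiquitous isoform, had 441.1, 513.3 and 506.2 CPM in control and 448.6, 402.8 and 421.2 CPM in degenerated replicates 1, 2 and 3. Its groups overlapped at one library, with -0.20 (SE 0.11). Its muscle counterpart Cox6a2 had 0.397, 4.74 and 10.7 CPM against 0.821, 0.564 and 1.42 CPM, a log2 fold change of -2.49 (SE 1.09, adjusted p = 0.551). Control replicate 1 lay below every degenerated library, and control replicate 3 above all others.

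Cox8a, the ubiquitous isoform of the smallest subunit, had 574.4, 621.5 and 595.4 CPM in control and 537.1, 496.2 and 498.5 CPM in degenerated replicates 1, 2 and 3, without overlap (-0.23, SE 0.09, adjusted p = 0.516). Cox8b, the muscle isoform, had 23.5, 29.5 and 53.7 CPM against 8.89, 23.0 and 17.1 CPM (-1.13, SE 0.47, adjusted p = 0.521). Its groups were just apart, at 23.0 and 23.5 CPM. Without control replicate 3 the log2 fold change was -1.47 for Cox6a2 and -0.71 for Cox8b, and without control replicate 1 Cox6a2 reached -3.04 and met the criteria of a call.

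Control replicate 3 was also the library in which genes of fast skeletal muscle stood high. Atp2a1, the calcium pump of fast muscle, had 120.4 CPM there and 2.25 to 5.40 CPM in the other 5 libraries. Mylpf, a fast myosin light chain, had 30.5 CPM there and 0.352 to 4.39 CPM elsewhere. Over the 14 listed of 15 muscle markers the sum was 735 to 1372 CPM in control and 332 to 525 CPM in degenerated libraries. Most of that sum is Pvalb, which neurons also express (the 1 of 5 tested called lower, at 322.6 to 817.3 CPM), and Myh2 was at 0 in all 6 libraries. The part of muscle RNA in the values of Cox6a2 and Cox8b was not tested. The muscle isoform Cox7a1, the testis isoform Cox7b2 and Cox4i2, an isoform known from lung, have no listed transcript, Cox8c was at 0 in all 6 libraries, and Cox6b2, known from testis, stood at 10.97 to 14.6 and 3.71 to 11.97 CPM (-0.66, SE 0.46).

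**Figure D4:**
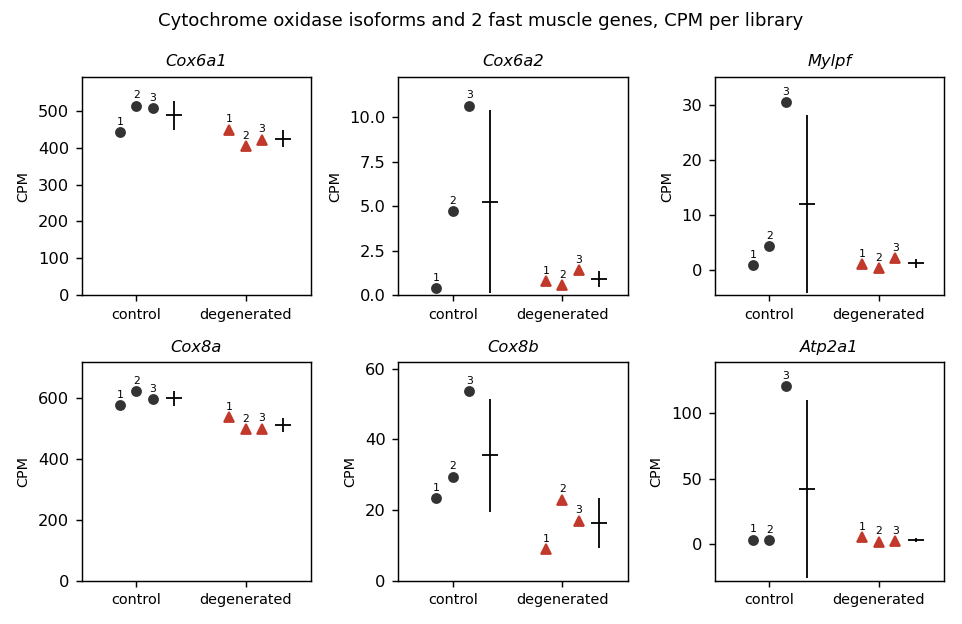
CPM per library (circles control, triangles degenerated, digits the replicate, with mean and SD of 3) of the ubiquitous isoforms Cox6a1 and Cox8a, their muscle counterparts Cox6a2 and Cox8b, and the fast muscle genes Mylpf and Atp2a1. Control replicate 3 is the highest point in Cox6a2, Cox8b, Mylpf and Atp2a1, but not in Cox6a1 and Cox8a.

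The sequences just before the start sites of Uqcrc1 (a called member) and of 3 of these isoform genes, the 2 ubiquitous ones and Cox8b, are shown as a description. The part of these sequences in the differences between groups was not tested. They are the 250 bases upstream of the RefSeq start on GRCm38.p6, 5′ to 3′ on the strand of the gene, at chr9:108936398-108936647 (plus strand, Uqcrc1), chr5:115348959-115349208 (minus, Cox6a1), chr19:7217617-7217866 (minus, Cox8a) and chr7:140900447-140900696 (minus, Cox8b). Capitals mark a match, on either strand, to the NRF1 motif GCGCANGCG in Cox6a1 and to the E-box CAGCTG in Cox8b.
Uqcrc1: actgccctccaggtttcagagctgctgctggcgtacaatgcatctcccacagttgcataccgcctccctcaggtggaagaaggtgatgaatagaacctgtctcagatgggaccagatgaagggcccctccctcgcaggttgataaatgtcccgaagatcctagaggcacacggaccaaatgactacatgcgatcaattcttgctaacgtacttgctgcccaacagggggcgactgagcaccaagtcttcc
Cox6a1: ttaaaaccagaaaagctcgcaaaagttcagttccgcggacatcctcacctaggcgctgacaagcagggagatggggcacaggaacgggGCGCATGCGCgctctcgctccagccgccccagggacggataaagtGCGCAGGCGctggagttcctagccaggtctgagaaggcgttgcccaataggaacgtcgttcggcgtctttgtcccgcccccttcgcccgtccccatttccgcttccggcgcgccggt
Cox8a: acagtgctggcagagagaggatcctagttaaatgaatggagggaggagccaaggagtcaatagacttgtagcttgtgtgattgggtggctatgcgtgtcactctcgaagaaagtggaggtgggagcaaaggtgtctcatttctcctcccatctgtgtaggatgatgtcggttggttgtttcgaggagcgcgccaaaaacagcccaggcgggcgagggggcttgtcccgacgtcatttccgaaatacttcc
Cox8b: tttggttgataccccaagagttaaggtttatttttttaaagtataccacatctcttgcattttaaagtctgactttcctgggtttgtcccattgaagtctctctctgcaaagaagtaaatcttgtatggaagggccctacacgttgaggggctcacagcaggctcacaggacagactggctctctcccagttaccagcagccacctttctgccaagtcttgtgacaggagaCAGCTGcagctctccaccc

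NRF1 (nuclear respiratory factor 1), ETS factors such as GABP, and YY1 are known activators of respiratory chain genes, and E-boxes are bound by muscle regulators among many others. RefSeq windows of this length were found for 77 of the 95 members, or 76 genes after joining the pair of entries named Atp5o. In 71 of the 82 windows of members, bases just after the start were found near the beginning of an annotated transcript. All 82 were searched. GCGCANGCG occurred upstream of 15 of the 76 (19.7%), beside 5.86% of all 27025 genes with such a window and 5.16% of all 32851 windows. By complex these were 7 of 40 genes with complex I names, 2 of 3 of complex II, 0 of 5 of complex III, 1 of 13 of complex IV and 5 of 15 of complex V. CCGGAAGT (ETS) was found in 3.95% of members and 3.23% of all genes, AANATGGCG (YY1) in 3.95% and 1.29%, and CAGCTG in 7.89% and 14.7%. In Cox6a1 the longer run of capitals reads as a match on both strands that overlap, and CAGCTG is its own reverse complement. None of the 4 motifs was found upstream of Uqcrc1 or Cox8a. Nor was any found upstream of Ndufs7, the other called member, whose window is not shown. Bases after that start were not found near the beginning of an annotated transcript. The members are protein-coding genes, whereas the 27025 genes were not limited to such genes. The letters are a description of these windows and not of binding.

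ATP synthase consists of a catalytic head (F1) and a membrane part with a ring of c subunits, joined by stalks. Atp5a1, the alpha subunit of the head, had the highest CPM of all members, at 1438, 1313 and 1393 CPM in control and 1291, 1225 and 1154 CPM in degenerated replicates 1, 2 and 3. The groups were separated by a narrow gap, with a log2 fold change of -0.18 (SE 0.10, adjusted p = 0.641). Atp5b, the catalytic beta subunit, had 323.4, 266.1 and 402.4 CPM against 264.3, 246.3 and 218.9 CPM (-0.44, SE 0.17, adjusted p = 0.496, and -0.29 without control replicate 3). Its coding transcripts are not in the table, and 92.5% of its counts lie on a transcript with a retained intron, so these values are not those of its mRNA. Atp5c1, the gamma subunit of the rotating shaft, was counted at no more than 1.56 CPM and is not interpretable here.

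Of the other F1 and stalk genes, Atp5o, which encodes the subunit that confers oligomycin sensitivity, had 227.0, 232.1 and 307.4 CPM in control and 216.4, 165.9 and 193.0 CPM in degenerated replicates 1, 2 and 3 (-0.41, SE 0.17, adjusted p = 0.513, and -0.27 without control replicate 3). Atp5f1, of the side stalk, was separated at 483.0 to 585.6 and 418.9 to 465.3 CPM (-0.26, SE 0.11, adjusted p = 0.546), whereas Atp5d of the shaft overlapped (-0.15, SE 0.11). Atp5j2, a membrane subunit, had 276.8, 212.5 and 272.4 CPM against 214.8, 189.3 and 178.7 CPM, where 1 degenerated library exceeded 1 control library (-0.39, SE 0.14, adjusted p = 0.48). Without control replicate 2 it reached -0.50 and met the criteria of a call.

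The c ring is encoded by 3 genes, Atp5g1, Atp5g2 and Atp5g3, that give the same mature protein from different precursors. Atp5g2 had 183.0, 213.1 and 223.6 CPM in control and 176.8, 151.9 and 174.3 CPM in degenerated replicates 1, 2 and 3, without overlap (-0.30, SE 0.12, adjusted p = 0.516). Atp5g3 stood at 265.2 to 380.0 and 222.6 to 272.3 CPM (-0.32, SE 0.17, and -0.15 without control replicate 3) and Atp5g1, the least abundant, at 55.5 to 76.6 and 48.9 to 57.7 CPM (-0.34, SE 0.17), and both overlapped. The order of the differences was thus within their standard errors. Of the remaining tested complex V genes, from Atp5mpl at -0.45 (SE 0.51, 0.11 without control replicate 3) to Atp5s at -0.05 (SE 0.45), all overlapped between groups.

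Levels of different genes can be compared only per transcript length. As length-corrected counts scaled to a sum of 1000000 over the listed transcripts (TPM), complex IV genes led among the 62 members with a principal transcript listed. Control libraries had 1980 ± 57.8 TPM of Cox8a, 1552 ± 42.4 TPM of Cox6a1, 1455 ± 262 TPM of Cox6c, 1208 ± 265 TPM of Cox5a and 1139 ± 131 TPM of Cox7c, followed by 1036 ± 112 TPM of Atp5a1 (SD, n = 3). Cox8a and Cox6a1 differed from each other by more than their SDs, whereas from Cox6a1 down to Atp5a1 neighbours in this order did not. The highest complex I level was that of Ndufa11, 589 ± 56.6 TPM, near Uqcr11 with 552 ± 70.8 TPM, and Uqcrc1 (479 ± 25.4 TPM), Sdhb (480 ± 65.9 TPM) and Sdha (464 ± 68.5 TPM) were alike within their SDs. Cox8b stood at 179 ± 78.0 TPM and Cox6a2, the lowest, at 13.8 ± 13.6 TPM.

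On the TPM scale the difference was smaller before centring, because the median gene stood 0.11 higher (log2) in degenerated libraries on that scale. The median log2 ratio of the 79 members was -0.12, or -0.23 relative to the median gene, and 61 members lay below 0 and 72 below the median gene. Complexes I, IV and V kept medians of -0.17, -0.20 and -0.11 before centring, while complex III was at -0.0031 and complex II turned to 0.0066. Relative to the median gene, complexes II and III lay at -0.11 and -0.12.

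Which transcripts the table lists bears on these values. Only 46.0% of the annotated transcripts are listed, and for 13 members none is (Ndufa6, Ndufa9, Ndufaf7, Ndufb9, Ndufb11, Ndufc2, Sdhd, Cyc1, Uqcrb, Cox4i2, Cox7a1, Cox7b2 and Atp5e), so they are not analysed here. The table holds 65535 transcripts, and why others are missing is not stated. A gene without a listed transcript may still have been expressed. The 62 tested members with a listed principal transcript, the one the annotation marks as the main coding form, had log2 fold changes below 0 in all 62 (55 of 62 on the TPM scale before centring), with a median of -0.28. The 17 tested members without one had 7 above and 10 below 0 and a median of -0.03, and 12 of them were counted at a mean under 10 CPM. All 47 members with a mean of at least 100 CPM were below 0 (41 of 47 on the TPM scale before centring), beside 45.1% of the 2408 genes of that level, and 23 of the 47 were separated between the groups, beside 8.72% of those genes. Among the 17 tested members with every annotated transcript listed, all 17 were below 0 (13 on the TPM scale before centring). Pseudogenes of several members exist, 13 genes that match the symbols are not protein-coding in the annotation, and how reads were shared between such copies is not stated.

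**Figure D5:**
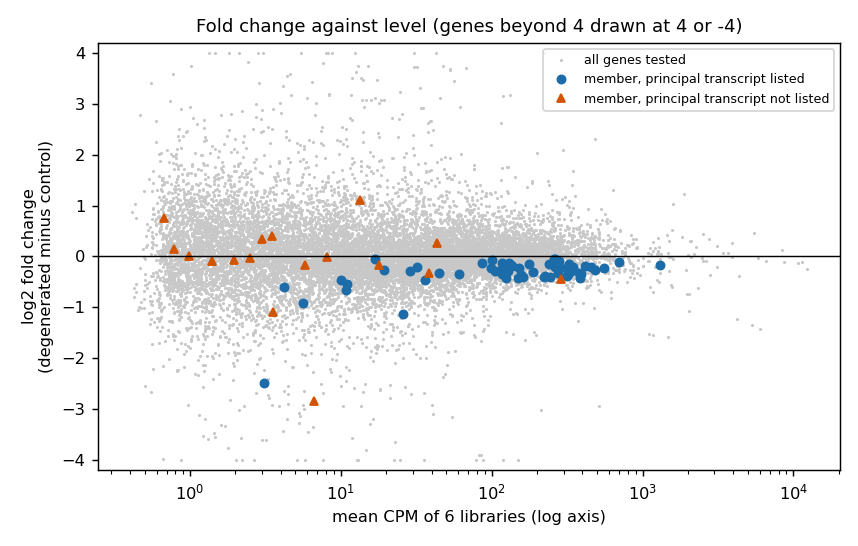
Log2 fold change (degenerated minus control) against the mean CPM of the 6 libraries on a log axis, for all 14118 genes tested (grey) and the 79 tested members with (circles) and without (triangles) their principal transcript listed. The circles lie below 0 throughout on this CPM-based scale, and the triangles, most of them under 10 CPM, lie on both sides.

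Lists of other genes that act with the chain had medians between -0.22 and -0.07, and 0 of their genes were called, beside 2.73% of all genes. Over all genes 50.3% lay below 0 and 9.68% had an unadjusted p under 0.05, and several of the counts that follow lie near these shares. How the lists compare with the members was not tested. Of the 11 tested assembly factors of complex I (7 of them members), 7 were below 0 with a median log2 fold change of -0.21, and of the 14 of complex IV 10 were below 0 with a median of -0.08. The assembly factors of complexes II, III and V gave 3 of 3, 3 of 4 and 2 of 3 below 0, with medians of -0.10, -0.15 and -0.22. Electron carriers and ubiquinone synthesis had 9 of 16 below 0 (median -0.15), and Cycs, cytochrome c itself, stood at 311.4 to 337.2 CPM in control and 279.5 to 320.0 CPM in degenerated libraries (-0.09, SE 0.10). In the citric acid cycle 9 of 14 genes were below 0 (median -0.17), and the 1 gene with an unadjusted p under 0.05 was Idh3b, a subunit of the NAD-dependent isocitrate dehydrogenase, with 380.7 to 427.7 against 301.9 to 355.3 CPM (-0.31, SE 0.11, adjusted p = 0.441). Among membrane and import genes 11 of 16 were below 0 (median -0.11), where Timm44, which tethers the import motor to the inner membrane channel, was the 1 gene at that p (54.9 to 63.9 against 36.3 to 46.0 CPM, -0.47, SE 0.16, adjusted p = 0.439). All degenerated libraries lay below all control libraries in 4 of 14 citric acid cycle, 2 of 16 membrane and import and 0 of 16 electron carrier genes (7.37% of all genes). They lay above in 0, 1 and 1 of these genes (10.3% of all genes).

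The subunits encoded in the mitochondrion complete complexes I, III, IV and V, but only 5 of these 13 genes, all of complex I, are listed. Of the 5, 3 were below 0 with a median log2 fold change of -0.11 and overlapping groups. The most distant was mt-Nd1, at 11760 to 14190 CPM in control and 9501 to 13480 CPM in degenerated libraries (-0.24, SE 0.18), and mt-Nd5 lay on the other side (0.12, SE 0.27). Of the 7 tested regulators of mitochondrial biogenesis 4 were below 0 (median -0.07). Tfam, which packages mitochondrial DNA and takes part in its transcription, was the 1 separated gene, with 72.0, 72.4 and 86.2 CPM in control and 61.2, 63.0 and 69.0 CPM in degenerated replicates 1, 2 and 3 (-0.26, SE 0.14, adjusted p = 0.612). Esrra, a nuclear receptor that activates respiratory genes, lay at -0.20 (SE 0.12) with overlapping groups, Nrf1 at 0.01 (SE 0.27), and Ppargc1a was not tested.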

How the data were processed

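Reads were aligned by the authors with Hisat2 2.1.0, and expression was evaluated with StringTie 1.3.3b. The submitters' processing notes name Bowtie 0.12.2 and the builds mm8 and mm10 without a role. For the annotation and the counter, nothing is stated in those sources. The authors deposited raw counts of 65535 Ensembl transcripts without normalization, of which 263 (0.125% of counts) did not match GENCODE M21. Because the test had been planned for genes, the listed transcripts of each gene were summed. The fit used edgeR 4.0.16 under R 4.3.3 (filterByExpr, TMM, robust quasi-likelihood F test), with all 3 degenerated against all 3 control libraries and no covariates. A standard error is the log2 fold change over the square root of F. TPM were computed from the deposited counts and GENCODE transcript lengths.

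The members, lists and motifs were chosen with earlier results of these data known, so that no p is given for a list. Members named with values were those called, the 3 with the smallest p and the largest changes in each complex, and core subunits and isoforms from a list. Others, such as Ndufb4 and Ndufaf2, were picked after their values were seen. Alternatives were edgeR's exact test, DESeq2 1.42.0, voom of limma 3.58.1, other scalings and filters, subsets of transcripts, a replicate block and each library left out. The fit with only genes that have a listed principal transcript was chosen after seeing the data. Only edgeR's quasi-likelihood fit was tested on simulated data, with changes larger than the medians given here. The medians, counts of separated genes, TPM and motifs were not simulated. The result of 1 gene is not reported here, though it is counted in the sums and medians.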

Additional observations from a re-analysis of the deposited data

How the results depend on the processing

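The depth of 12480876 to 15549319 counts per library and 3 libraries per group limit the precision, and a transcript table that lists a part of the transcripts limits which members can be read. The medians of all 5 complexes stayed below 0 under every edgeR, DESeq2, limma and leave-one-out fit that was run, and 0 members were called higher in any of them. DESeq2 called 479 genes higher and 306 lower, 383 at an adjusted p under 0.05, and 4 members lower (Ndufa11 and Ndufb3 beside Ndufs7 and Uqcrc1). edgeR's exact test gave 115 genes at an adjusted p under 0.05 and 0 members lower. The fit to genes with every transcript listed called 82 genes higher and 53 lower, 3 at an adjusted p under 0.05 and 0 members, and its complex IV median of -1.82 rests on Cox6a2 and Cox8b alone. Counting coding transcripts only gave 184 genes higher and a complex III median of -0.18. Leaving out 1 library at a time gave 144 to 339 genes higher, 76 to 158 lower, 0 to 3 at an adjusted p under 0.05, and 0 to 2 members lower. The same fits gave medians of -0.35 to -0.16 in complex I, -0.19 to -0.05 in complex II, -0.197 to -0.065 in complex III, -0.38 to -0.245 in complex IV and -0.32 to -0.20 in complex V.

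The replicate number as a block (replicate block) called 160 genes higher, 58 lower and 0 members. The deviations of libraries with the same number correlated at 0.160, -0.0905 and 0.0674. Control replicate 1 correlated best with degenerated replicate 1, but control replicate 2 with degenerated replicate 3 (0.235). With 3 libraries per group these correlations cannot decide whether the numbers pair the libraries.

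Of the 42 tested members that the naming rule picks, 23 moved by over 1.5 times or changed sign when 1 library was left out, 19 of them without control replicate 3. Members counted at few reads or near no difference changed sign. Atp5c1 (0.0072) went to -0.0104 with DESeq2 or RLE normalization, to -0.01035 with no filter, to -0.0109 with coding transcripts only and to -0.033 without mitochondrial genes, and the fits that left out 1 library gave -0.283 to 0.508. Cox5b went to 0.027 with limma-voom, 0.024 with the block, and -0.20 to 0.161 in the fits that left out 1 library. Ndufaf4 went to -1.57 with coding transcripts only and, with 1 library left out, to -0.14 (without degenerated replicate 1) to 1.47. Leaving out 1 library gave -0.528 to 0.014 for Ndufa4 and -0.76 to 0.107 for Atp5mpl. The causes of these changes were not tested.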
